A study of Homo sapiens with 6 samples.

Results

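Haem synthesis genes were described in K562 cells, a human leukaemia line with erythroid and megakaryocytic features, after shRNA knockdown of ZRSR2. The 9 genes were ALAS1, ALAS2, ALAD, UROS, UROD, CPOX, PPOX and FECH, which encode enzymes of the pathway, and SLC25A38, which encodes a mitochondrial carrier. The list does not hold every gene of the pathway. Members were all listed introns that lay inside 1 of these genes on its strand, which gave 98 of 241593 introns, and 9 of 27650 genes with at least 1 intron. The cells had been transduced with either of 2 shRNAs against ZRSR2 (sh1 or sh2) or with a control shRNA (Con_sh), and each of the 3 groups held 2 libraries. The labels number the libraries of a group as experiment 1 and experiment 2, and all groups share the line and its medium. The labels do not say that the experiments were separate cultures, so p-values measure the spread between these libraries, which may be technical. ZRSR2 is a protein of the minor spliceosome, which recognises the 3′ end of a small class of introns.

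Haem is made in a chain of enzyme steps that begins in the mitochondrion, passes through the cytosol and ends in the mitochondrion again. The first step joins glycine and succinyl-CoA and is catalysed by ALAS1 in most tissues and by ALAS2 in erythroid cells, where the demand for haem is set by haemoglobin. Faults in ALAS2 or in SLC25A38 cause inherited sideroblastic anaemias, and faults in later enzymes cause porphyrias.

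The sequence before the start of ALAS1, ALAS2 and CPOX is printed because the first pair catalyses the same step in different tissues and because CPOX had the lowest p-value among the sums of the 9 genes. The letters GATAA, or TTATC on the other strand, are the core read by GATA factors, which include the erythroid factor GATA1, and are given in capitals. Each line holds the 250 bases before the start in RefSeq (GRCh38.p14), 5′ to 3′ on the strand of the gene, and lies at chr3:52197833-52198082 on the plus strand for ALAS1, chrX:55030978-55031227 on the minus strand for ALAS2 and chr3:98593612-98593861 on the minus strand for CPOX.
ALAS1: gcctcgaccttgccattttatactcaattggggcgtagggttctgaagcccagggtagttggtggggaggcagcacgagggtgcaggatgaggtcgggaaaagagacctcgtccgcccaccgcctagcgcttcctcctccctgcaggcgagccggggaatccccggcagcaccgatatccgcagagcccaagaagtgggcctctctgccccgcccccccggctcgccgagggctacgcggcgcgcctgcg
ALAS2: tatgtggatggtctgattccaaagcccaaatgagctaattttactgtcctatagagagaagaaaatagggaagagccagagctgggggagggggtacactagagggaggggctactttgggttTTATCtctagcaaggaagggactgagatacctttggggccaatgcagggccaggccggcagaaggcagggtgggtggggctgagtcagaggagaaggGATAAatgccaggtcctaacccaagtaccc
CPOX: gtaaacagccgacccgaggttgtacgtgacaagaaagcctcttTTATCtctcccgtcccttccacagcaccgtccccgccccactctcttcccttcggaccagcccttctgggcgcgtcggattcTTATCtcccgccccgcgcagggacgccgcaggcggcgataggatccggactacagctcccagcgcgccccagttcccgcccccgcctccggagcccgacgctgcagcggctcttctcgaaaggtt
The first base of a match stood 127 and 30 bases before the start in ALAS2, and 207 and 125 bases before it in CPOX. PPOX held 1 match, 63 bases before the start, in 1 of its 2 entries. Of the 8 genes with an entry, 3 held the letters in at least 1 entry. Of 35116 RefSeq promoters of the same length, each counted singly, 20.4% did. The count of genes and the share of promoters differ in unit, because ALAD and PPOX have more than 1 entry. A gene with more entries has more chances of a match, so the count and the share are not directly comparable. The matches are letters in a window and show no binding.

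Reads came to between 82986327 and 100088332 spliced reads in the knockdown libraries, against 86235725 and 101120454 in the control libraries. ZRSR2 stood at 10.6 and 10.7 CPM (spliced reads scaled to a common library total) in sh1 and 10.3 and 12.8 CPM in sh2, against 27.9 and 23.6 CPM in Con_sh. The log2 fold change was -1.21 (SE 0.17), with an adjusted p of 0.558 by edgeR's quasi-likelihood test and 1.45e-06 by DESeq2. All 13 erythroid markers were present, and their summed level was 14819 and 6438 CPM in sh1 and 27620 and 10533 CPM in sh2, against 4559 and 7466 CPM in Con_sh. Most of this sum came from globin genes in every library, so it is mainly a globin level. Globin genes with near-identical copies are among these markers, and the split of reads between such copies is uncertain. In bulk RNA, fewer cells of a type and less RNA per cell cannot be told apart. The sh2 library of experiment 1 was the highest of the 6 libraries for 24.9% of the 17417 genes tested. That share was not computed for the other libraries.

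The genes differed widely in level. Per separate intron, which allows levels of genes to be compared, UROD averaged 82.4 ± 0.141 CPM per intron in sh1 and 102.2 ± 13.9 in sh2, against 82.7 ± 2.51 in Con_sh (SD, n = 2). The other 8 genes averaged between 1.49 and 6.53 CPM per intron in Con_sh, with ALAD lowest and ALAS2 next. In Con_sh the order below UROD was SLC25A38 at 6.53 ± 0.928, ALAS1 at 4.97 ± 1.07, FECH at 4.89 ± 1.59, PPOX at 4.37 ± 0.628, CPOX at 4.12 ± 1.07, UROS at 3.68 ± 0.73, ALAS2 at 2.16 ± 1.3 and ALAD at 1.49 ± 0.179 CPM per intron. Apart from UROD and SLC25A38, neighbours in this order differed by less than the sum of their SDs.

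No haem synthesis gene passed the test of gene sums. Over both shRNAs against the control, edgeR called 0 of 9 genes at an adjusted p of 0.05, as it called 0 of 17417 genes in all, or 0%. At an unadjusted p under 0.05 it gave CPOX and FECH, both higher in the knockdown, which is 2 of 9 genes against 4.5% of all genes tested in that direction, and 0 of 9 lower, against 3.84%. DESeq2 called 0 of 9, against 0.689% of all genes higher and 0.396% lower. The median log2 fold change was 0.21 over the 9 genes and -0.01 over all genes tested, and 8 of 9 genes lay above 0, against 48.8% of all genes.

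ALAS1, the form of the first enzyme used in most tissues, had 59.1 and 68.0 CPM in sh1 and 40.5 and 55.4 CPM in sh2, against 46.4 and 63.0 CPM in Con_sh. The groups overlapped, and over both shRNAs the log2 fold change was 0.01 (SE 0.20; edgeR adjusted p 0.989).

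ALAS2, the erythroid form, had 48.8 and 13.0 CPM in sh1 and 166.8 and 26.1 CPM in sh2, against 33.9 and 13.7 CPM in Con_sh. The sh2 library of experiment 1 was far above the rest, and experiment 1 was above experiment 2 in every group, by 3.75 times in sh1, 6.38 times in sh2 and 2.48 times in Con_sh. Within an experiment, the ratio of sh2 to Con_sh was 4.92 in experiment 1 and 1.91 in experiment 2, and the ratio of sh1 to Con_sh was 1.44 and 0.951. Over both shRNAs its log2 fold change was 1.20 (SE 0.85; edgeR adjusted p 0.72). Leaving out 1 library moved it between 0.26, without the sh2 library of experiment 1, and 2.0, without the control of experiment 1. With the experiment as a replicate block it was 0.91 (SE 0.27), at an unadjusted p of 0.0143 and an edgeR adjusted p of 0.272. Over both shRNAs, no other of the 9 genes moved to the other side of an unadjusted p of 0.05. For sh2 against control the block moved the edgeR p of ALAS2 from 0.0741 to 0.00165 (adjusted p 0.232). For sh1 against sh2 it moved that of ALAS2 from 0.127 to 0.0029 (adjusted p 0.414) and that of ALAS1 from 0.119 to 0.0177 (adjusted p 0.427). The summed erythroid markers, given above, were also highest in the sh2 library of experiment 1, and their part in the ALAS2 value was not tested.

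SLC25A38, which brings glycine into the mitochondrion, had 28.4 and 35.9 CPM in sh1 and 38.5 and 40.4 CPM in sh2, against 35.2 and 43.1 CPM in Con_sh. The groups overlapped, at a log2 fold change of -0.14 (SE 0.17; edgeR adjusted p 0.838).

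ALAD, which makes porphobilinogen from aminolevulinic acid, had 15.7 and 16.1 CPM in sh1 and 28.4 and 16.8 CPM in sh2, against 15.0 and 17.8 CPM in Con_sh. Apart from the sh2 library of experiment 1, its libraries lay close together, and the log2 fold change was 0.21 (SE 0.24; edgeR adjusted p 0.832). UROS, which closes the tetrapyrrole ring, had 30.8 and 35.5 CPM in sh1 and 73.0 and 43.8 CPM in sh2, against 25.3 and 33.6 CPM in Con_sh. Both sh2 libraries of UROS lay above both controls, while the sh1 libraries overlapped them. With sh2 against control it had a log2 fold change of 0.99 (SE 0.28); its unadjusted p was 0.00994 and the adjusted p 0.562 by edgeR and 0.0764 by DESeq2. UROD, which removes carboxyl groups from the ring, had 740.6 and 742.3 CPM in sh1 and 1008 and 831.4 CPM in sh2, against 728.5 and 760.4 CPM in Con_sh. Here too only the sh2 libraries lay above both controls, at a log2 fold change of 0.31 (SE 0.15; edgeR adjusted p 0.631).

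CPOX, which converts coproporphyrinogen to protoporphyrinogen in the mitochondrion, had 50.9 and 38.7 CPM in sh1 and 59.9 and 39.1 CPM in sh2, against 20.1 and 29.3 CPM in Con_sh. All 4 knockdown libraries were above both control libraries, from sums of 3061 to 4775 reads in the knockdown and 1599 and 2697 reads in Con_sh. CPOX had a log2 fold change over both shRNAs of 0.93 (SE 0.26); its unadjusted p was 0.00914 and the adjusted p 0.558 by edgeR and 0.0579 by DESeq2. The ratio to the control of the same experiment was 2.53 in sh1 and 2.98 in sh2 in experiment 1, and 1.32 and 1.34 in experiment 2. Without the sh2 library of experiment 1 the log2 fold change was 0.76.

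FECH, which inserts iron into protoporphyrin, had 88.6 and 68.1 CPM in sh1 and 135.2 and 77.3 CPM in sh2, against 41.4 and 66.1 CPM in Con_sh. Its 4 knockdown libraries were also above both controls, but in experiment 2 the sh1 library was above its control by a ratio of only 1.03 and the sh2 library by 1.17, against 2.14 and 3.27 in experiment 1. FECH had a log2 fold change of 0.76 (SE 0.30); its unadjusted p was 0.0375 and the adjusted p 0.564 by edgeR. It was 0.47 without the control of experiment 1 and 1.15 without that of experiment 2. CPOX and FECH were the 2 of 9 genes with all knockdown libraries above both controls, against 10% of all genes tested, and 0 of 9 had all of them below, against 9.59%.

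PPOX, which oxidises protoporphyrinogen, had 49.3 and 29.5 CPM in sh1 and 139.8 and 45.7 CPM in sh2, against 57.8 and 47.1 CPM in Con_sh. Its high value stood in the sh2 library of experiment 1, and the other sh2 library lay below both controls. PPOX had a log2 fold change of sh1 against sh2 of -1.23 (SE 0.50); its unadjusted p was 0.0451 and the adjusted p 0.912 by edgeR. Over both shRNAs it was 0.21 (SE 0.43), and -0.30 without the sh2 library of experiment 1.

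**Figure D1:**
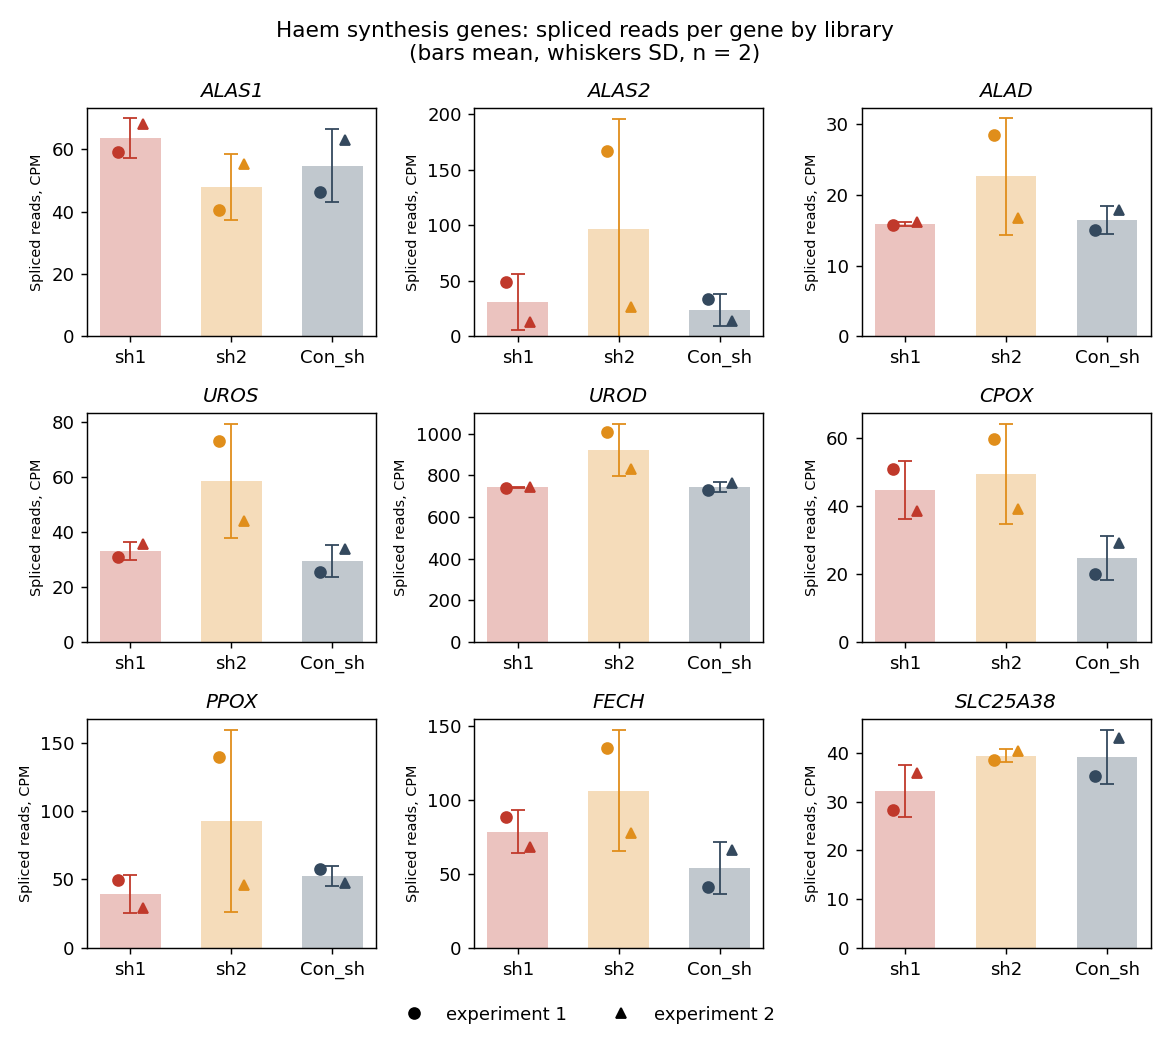
Spliced reads per gene in CPM for each of the 9 genes, with sh1, sh2 and Con_sh from left to right. Points are libraries (circles experiment 1, triangles experiment 2), bars are means and whiskers are the SD (n = 2). The sh2 library of experiment 1 is highest in 7 of 9 panels, at 166.8 CPM for ALAS2 and 139.8 CPM for PPOX, and only in CPOX and FECH do all knockdown points lie above both controls.

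The sh2 library of experiment 1 was the highest of the 6 for 7 of 9 genes, against 24.9% of all genes tested, and was at least 2-fold above the control of the same experiment for 5 of 9, against 13.4%. In experiment 2 the sh2 library was at least 2-fold above its control for 0 of 9 genes, against 5.94% of all genes. The 5 genes were ALAS2, UROS, CPOX, PPOX and FECH. In sh2 against control the median log2 fold change of the 9 genes was 0.82, against -0.00 for all genes tested, and in sh1 against control it was 0.17 and -0.01. The comparisons of the shRNAs share their control libraries, so their values are not independent. For sh2 against control edgeR called 0 of 9 genes, with 3 higher at an unadjusted p under 0.05 against 5.08% of all genes and 0 lower against 3.31%, and DESeq2 called 0 of 9, against 0.718% higher and 0.471% lower. For sh1 against control edgeR again called 0 of 9, with 1 higher at an unadjusted p under 0.05 against 3.66% and 0 lower against 3.11%, and DESeq2 called 0 of 9, against 0.511% higher and 0.195% lower. For sh1 against sh2 edgeR called 0 of 9, with UROS and PPOX lower at an unadjusted p under 0.05 against 2.9% and 0 higher against 2.42%, and DESeq2 called 0 of 9, against 0.201% higher and 0.184% lower.

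**Figure D2:**
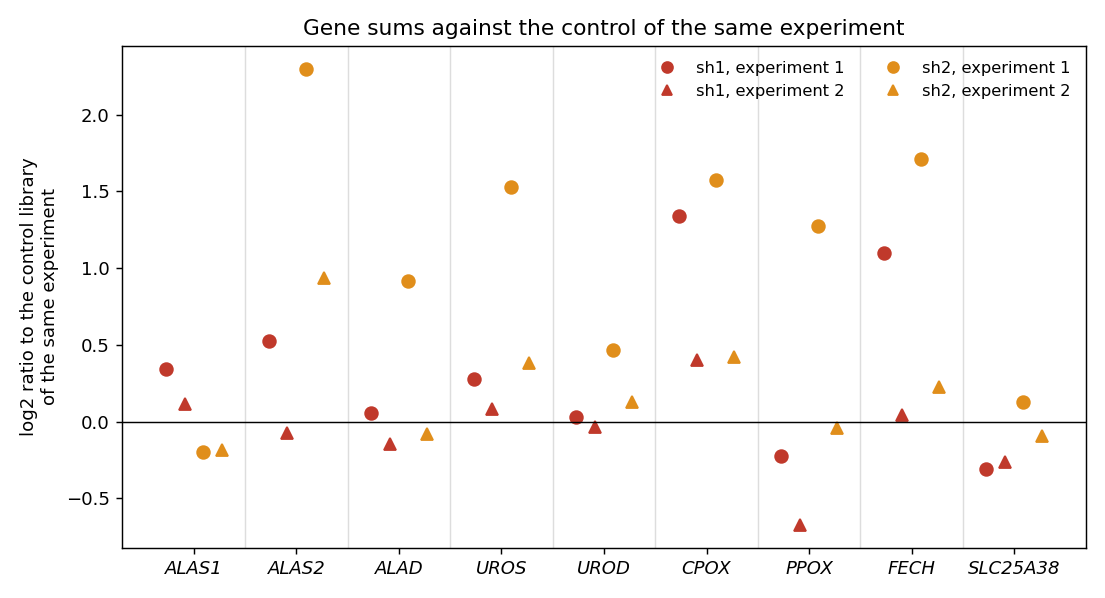
log2 ratio of each knockdown library to the control library of the same experiment, for each gene, with sh1 left of sh2. Circles are experiment 1 and triangles experiment 2, and the line at 0 is the control. ALAS2 reaches a ratio of 4.92 in sh2 of experiment 1 and 1.91 in experiment 2, while FECH stands at 1.03 in sh1 and 1.17 in sh2 of experiment 2.

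Retention, the authors' percentage of boundary reads over boundary reads plus 2 times spliced reads, varied strongly among the 98 introns. Of these, 41 had a mean retention under 2%, 32 between 2% and 10% and 25 over 10%, so that 25.5% of them lay over 10%, against 12.4% of all 134078 introns tested. Those 25 lay in only some of the genes, 12 in PPOX, 7 in UROD, 4 in ALAS2 and 2 in ALAD. Some of them are overlapping intervals that share boundary reads. The median over the 98 introns was 2.62%, against 1.48% over all introns tested. By gene, the median intron lay lowest in FECH at 0.448% and ALAS1 at 0.807%, and highest in PPOX at 18.6% and UROD at 10.8%. The most retained separate intron was neither the first nor the last of its gene, except in PPOX, where it was the first, as the plot of retention along each gene shows.

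No intron of the 9 genes was called more or less retained. edgeR's quasi-likelihood test over both shRNAs called 0 of 98 introns at an adjusted p of 0.05, against 0.33% of all introns more retained and 0.0209% less retained, and the lowest adjusted p was 0.613. At an unadjusted p under 0.05, 5 of 98 were more retained, against 2.78% of all, and 0 less retained, against 1.66%. All 4 knockdown libraries exceeded both controls in 10 of 98 introns, or 10.2%, against 7.28% of all introns, and were below both in 4, or 4.08%, against 4.11%. Of those 10 introns, 6 lay in PPOX, 2 in ALAS2, 1 in ALAS1 and 1 in UROS. DESeq2 was not run on the intron pairs. The median log2 fold change was 0.12 over the 98 introns and 0.08 over all introns.

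With sh2 the whole set of introns tested was shifted, by a median log2 fold change of 0.16, against 0.02 with sh1, and member values are read beside that shift. For sh2 against control the 98 introns had a median of 0.24 with 71 above 0, against 59.5% of all, 0 were called by edgeR, against 0.266% of all introns more retained and 0.0201% less retained, and 11, or 11.2%, were more retained at an unadjusted p under 0.05, against 3.35%. For sh1 against control the median was 0.04 with 54 above 0, against 51.3%, 0 were called, against 0.292% more and 0.0104% less retained, and 4 had an unadjusted p under 0.05, against 2.53%. For sh1 against sh2 the median was -0.16 beside -0.14 for all introns, with 29 above 0 against 41.7%. In that contrast 0 were called, against 0.0246% and 0.0097%. At an unadjusted p under 0.05, 9, or 9.18%, were less retained in sh1, against 2.51%. Overlapping intervals that share reads enter both the 11 and the 9, such as chrX:55021275-55024717 of ALAS2 and its inner introns. These counts are therefore not of independent introns.

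**Figure D3:**
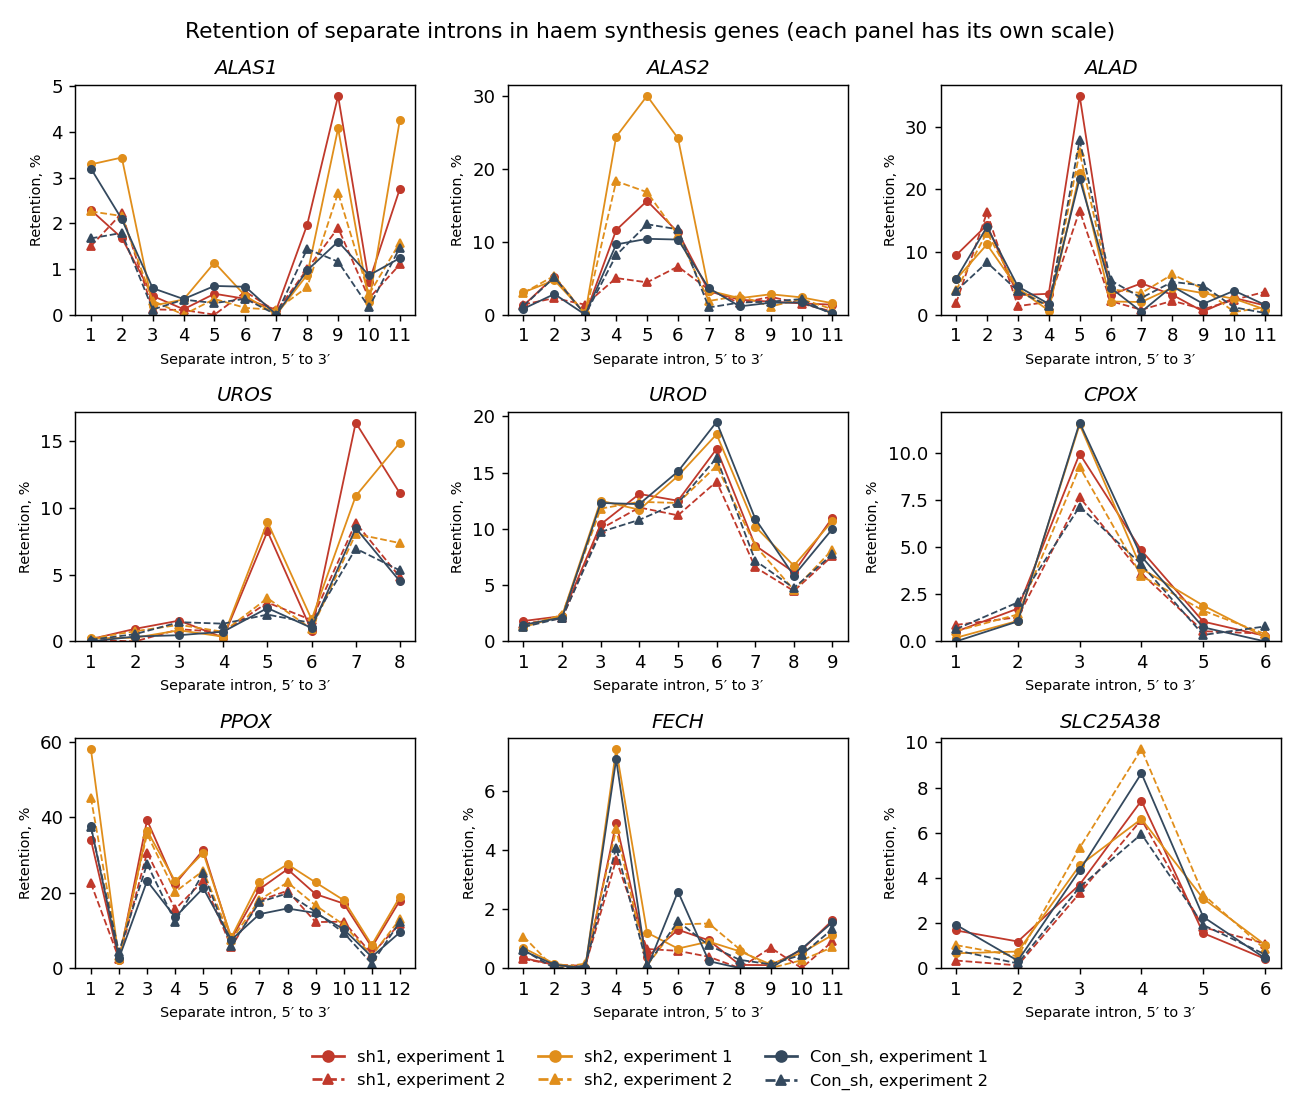
Retention in percent of separate introns in 5′ to 3′ order for each gene, with its own scale. Colours are sh1, sh2 and Con_sh, solid lines with circles are experiment 1 and broken lines with triangles experiment 2. ALAS2 introns 4 to 6 reach 24.4%, 30% and 24.2% in sh2 of experiment 1, against 9.63%, 10.4% and 10.3% in Con_sh of that experiment.

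In ALAS1 the intron with the smallest p was chr3:52208248-52211282 on the plus strand, whose retention was 4.79% and 1.9% in sh1 and 4.08% and 2.67% in sh2, against 1.6% and 1.16% in Con_sh. All 4 knockdown libraries exceeded both controls, from 12 to 36 boundary reads a library. Over both shRNAs this intron had a log2 fold change of 1.25 (SE 0.55); its unadjusted p was 0.0222 and the edgeR adjusted p 0.945. The most retained interval of ALAS1, chr3:52198256-52199209 near the start of the gene, ranged from 3.6% to 7.61% in the knockdown and from 3.54% to 5.38% in Con_sh, with a log2 fold change of 0.11. It spans an exon, and boundary reads of its inner introns enter its percentage by construction.

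ALAS2 had all 13 introns above 0 in log2 fold change over both shRNAs, beside 55.5% of all introns tested. With sh2 against control 13 lay above 0, against 59.5% of all, and with sh1 against control 7 did, against 51.3%, and some of the 13 share reads. Its most retained interval, chrX:55021275-55024717 on the minus strand, stood at 22.4% and 6.21% in sh1 and 42.6% and 26.3% in sh2, against 17.1% and 15.5% in Con_sh. Both sh2 libraries lay above both controls, while the sh1 libraries lay on either side of them. For sh2 against control this gave a log2 fold change of 1.45 (SE 0.56); its unadjusted p was 0.0104 and the edgeR adjusted p 0.766, and the log2 fold change of sh1 against sh2 was -1.65 (SE 0.58; p 0.00436, adjusted p 1). The interval holds the inner introns chrX:55023868-55024717 and chrX:55021275-55023756, which share its reads. The first of these had 11.6% and 5.02% in sh1 and 24.4% and 18.3% in sh2, against 9.63% and 8.15% in Con_sh.

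The depth of ALAS2 introns was unequal between libraries. The interval had 180 and 68 spliced reads in sh1 and 526 and 91 in sh2, against 143 and 79 in Con_sh. The ALAS2 intron with the smallest p over both shRNAs, chrX:55009344-55013485, was nearly free of boundary reads. It had 10 and 1 in sh1 and 41 and 3 in sh2, against 1 and 0 in Con_sh. Its retention was 1.37% and 0.418% in sh1 and 1.57% and 0.741% in sh2, against 0.211% and 0% in Con_sh, and its fitted fold change of 2.78 on the log2 scale (SE 1.15; adjusted p 0.861) depends on those few reads and was 4.35 without the control of experiment 1. Of the ALAS2 introns, 1 separate intron overlapped PAGE2B, whose reads cannot be told apart from those of ALAS2 without strand.

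In ALAD, the most retained intron, chr9:113390677-113390797 on the minus strand, had 34.9% and 16.6% in sh1 and 22.6% and 25.9% in sh2, against 21.7% and 27.8% in Con_sh. Its groups overlapped, with a log2 fold change of -0.02 (SE 0.60). The next intron downstream, chr9:113390494-113390592, had 3.15% and 2.17% in sh1 and 2.1% and 4.05% in sh2, against 4.3% and 5.47% in Con_sh. All 4 knockdown libraries were below both controls there, with a log2 fold change of -0.85 (SE 0.72) and an edgeR adjusted p of 1.

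In UROS, the intron chr10:125796189-125798064 on the minus strand shared the lowest adjusted p of all 98. It had 8.25% and 2.91% in sh1 and 8.96% and 3.24% in sh2, against 2.5% and 2.01% in Con_sh. All knockdown libraries exceeded both controls, and those of experiment 1 were above those of experiment 2. The log2 fold change was 1.32 (SE 0.48); its unadjusted p was 0.00621 and the edgeR adjusted p 0.613. The most retained intron of UROS, chr10:125789364-125794879, had 16.4% and 8.89% in sh1 and 10.9% and 8.06% in sh2, against 8.49% and 6.96% in Con_sh.

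UROD, the gene with the highest level, had 1 of 12 introns under 2% mean retention and 7 over 10%. The interval chr1:45014071-45014735 on the plus strand had retention between 89.9% and 91.8% in the knockdown libraries, against 92.7% and 92.2% in Con_sh. This interval spans a whole exon and its 2 introns, and had 62 to 112 spliced reads in the knockdown, against 70 and 63 in Con_sh, and boundary reads of the inner introns enter its percentage by construction. All 4 knockdown libraries were below both controls, and the log2 fold change was -0.29 (SE 0.37; edgeR adjusted p 1).

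CPOX had its highest retention at chr3:98588855-98590631 on the minus strand, with 9.95% and 7.64% in sh1 and 11.5% and 9.25% in sh2, against 11.6% and 7.15% in Con_sh, and the groups overlapped. The intron chr3:98581512-98585440 had 1.05% and 0.542% in sh1 and 1.9% and 1.63% in sh2, against 0.746% and 0.343% in Con_sh. Both sh2 libraries lay above both controls, and the log2 fold change of sh2 against control was 1.79 (SE 0.73); its unadjusted p was 0.0144 and the edgeR adjusted p 0.836.

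PPOX was the most retained gene. Its pooled retention, over separate introns, was 20.6% and 14.9% in sh1 and 21.2% and 17.9% in sh2, against 13.7% and 15.1% in Con_sh. The sh1 library of experiment 2 lay between the controls, and the other knockdown libraries lay above both. Of its 15 introns, 14 had a log2 fold change above 0 over both shRNAs, against 55.5% of all introns tested. With sh1 against control 12 did, against 51.3%. In 6 of the 15 all knockdown libraries exceeded both controls, against 7.28% of all. Only 12 of the 15 are separate, and the others share boundary reads with them. The intron with the smallest p, chr1:161170770-161170906 on the plus strand, had 5.53% and 3.73% in sh1 and 6.14% and 3.34% in sh2, against 2.99% and 1.18% in Con_sh. Its log2 fold change was 1.24 (SE 0.52); its unadjusted p was 0.0159 and the edgeR adjusted p 0.861. It was 2.03 without the control of experiment 1 and 0.67 without that of experiment 2. The most retained interval of PPOX, chr1:161167235-161170619, had 86.4% and 62.3% in sh1 and 86.5% and 71.6% in sh2, against 66.2% and 62.6% in Con_sh. That interval had 17 and 23 spliced reads in sh1 and 48 and 29 in sh2, against 33 and 37 in Con_sh. It spans several introns, and boundary reads of its outermost inner introns enter its percentage by construction. Over all 6 libraries those inner introns averaged 32.1% (chr1:161167235-161167370) and 13.1% (chr1:161170520-161170619). Of the 15 introns, 1 that is not separate overlaps the span of B4GALT3.

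FECH had 11 of 12 introns under 2% mean retention. The intron chr18:57566582-57571391 on the minus strand had 0.374% and 0.647% in sh1 and 1.2% and 0.0905% in sh2, against 0% and 0.0993% in Con_sh. It rested on 5 and 8 boundary reads in sh1 and 24 and 1 in sh2, against 0 and 1 in Con_sh. The sh2 library of experiment 2 lay between the controls. The fitted log2 fold change of 2.97 (SE 1.08) had an unadjusted p of 0.00623 and an edgeR adjusted p of 0.613. It was 1.57 without the sh2 library of experiment 1, which held 24 of those boundary reads, and 4.92 without the control of experiment 2. The most retained intron, chr18:57571541-57573245, had 4.91% and 3.67% in sh1 and 7.4% and 4.7% in sh2, against 7.06% and 4.08% in Con_sh.

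SLC25A38 had its highest retention at chr3:39391621-39391852 on the plus strand, with 7.42% and 6.58% in sh1 and 6.61% and 9.7% in sh2, against 8.63% and 5.94% in Con_sh. The intron chr3:39389617-39390422 had 1.18% and 0.122% in sh1 and 0.734% and 0.522% in sh2, against 0.328% and 0.207% in Con_sh, from 1 to 6 boundary reads a library.

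**Figure D4:**
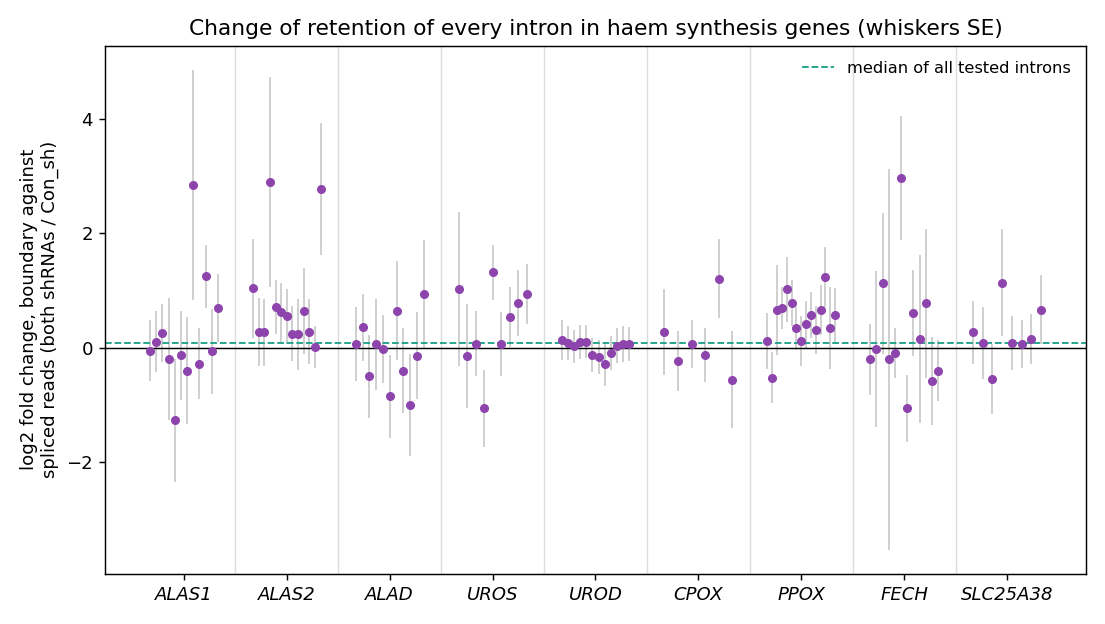
Change in retention on the log2 scale, as boundary over spliced reads in both shRNAs over control, for each of the 98 introns, by gene. Whiskers are the SE derived from the F statistic of the test, which is unstable near 0. The broken line is the median of all introns tested, 0.08. In ALAS2 all 13 points lie above 0 and in PPOX 14 of 15 do, against 55.5% of all introns tested. With sh1 against control, not drawn, 7 of 13 and 12 of 15 did, against 51.3%.

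Introns that share an end describe alternative use of a splice site or skipping of an exon. Over the whole table, the spliced count of an intron that spans an exon was lower for longer exons. Set against the mean of the 2 inner introns, its median over the whole table was 89.8% for exons of 1 to 60 nt, 57.9% for 61 to 100 nt, 30% for 101 to 150 nt and 18.7% for 151 to 300 nt. The share of the longer intron among the spliced reads of the shorter one is therefore not read as a measure of skipping, and only groups are compared in it. Of 25 such pairs in the 9 genes, edgeR called 0, and 0 had an unadjusted p under 0.05, against 0% called and 4.95% of all 21518 pairs at that p. DESeq2 was not run on the pairs.

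The share did not follow exon length alone. For the 138 nt exon of UROD the longer intron took 1.29% and 1.23% in sh1 and 1.57% and 1.58% in sh2, against 1.41% and 1.11% in Con_sh, while for its 63 nt exon it took 47.9% and 48.2% in sh1 and 47.7% and 47.8% in sh2, against 49.5% and 48.8% in Con_sh. In FECH, around a 110 nt exon, it took 97.1% and 97.3% in sh1 and 97.8% and 97.5% in sh2, against 98.4% and 97.8% in Con_sh. ALAS1 had a 177 nt exon near its start, where the longer intron took 61.8% and 62.1% in sh1 and 62.6% and 67.2% in sh2, against 53% and 63.2% in Con_sh, with a log2 fold change of 0.32 (SE 0.26; unadjusted edgeR p 0.263) that was 0.02 without the control of experiment 1. The smallest p of a pair was 0.203, in SLC25A38.

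Genes around the pathway were read from lists of other steps in iron and haem handling, chosen with earlier results known. Their counts stand beside 4.5% of all genes tested higher and 3.84% lower at an unadjusted p under 0.05, and beside a median of -0.01. In iron uptake and storage, 0 of 10 genes tested passed edgeR over both shRNAs or DESeq2, 0 had an unadjusted p under 0.05 by edgeR, and the median log2 fold change was 0.16. In mitochondrial iron and iron-sulphur cluster assembly, 0 of 16 passed, 1 had an unadjusted p under 0.05, and the median was -0.05. That gene was FDX2, a mitochondrial ferredoxin, at 41.0 and 44.0 CPM in sh1 and 51.3 and 48.1 CPM in sh2, against 75.2 and 53.5 CPM in Con_sh (log2 fold change -0.49, SE 0.17, edgeR adjusted p 0.558). In haem export, transport and breakdown, 0 of 9 passed, 1 had an unadjusted p under 0.05 and the median was -0.09. ABCG2, a transporter that exports porphyrins, had 21.5 and 4.81 CPM in sh1 and 87.0 and 19.0 CPM in sh2, against 6.3 and 6.44 CPM in Con_sh, at a log2 fold change of 2.05 (SE 0.78; edgeR adjusted p 0.564). The sh2 library of experiment 1 was far above the rest, and the sh1 library of experiment 2 was below both controls. Among genes of ALAS control and substrate supply, 0 of 12 passed, 2 had an unadjusted p under 0.05 and the median was -0.01. They were BACH1, a haem-sensing repressor (0.56, SE 0.21), and SLC6A9, a glycine carrier (0.84, SE 0.35). In this list edgeR called 1 of 160 introns more retained with sh1, in LONP1, a mitochondrial protease, against 0.292% of all introns.

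Of the erythroid markers, 13 of 13 had a log2 fold change above 0 over both shRNAs, against 48.8% of all genes tested, with a median of 1.08 and 5 at an unadjusted p under 0.05, against 4.5% of all genes higher. Near-identical globin copies count singly among the 13. Their summed level in experiment 1 was 14819 CPM in sh1 and 27620 in sh2, against 4559 in Con_sh. In experiment 2 it was 6438 in sh1, below the 7466 of Con_sh, and 10533 in sh2. For gene sums edgeR called 0 of the erythroid markers and 0 of the markers of other lineages. Among 33 introns of the megakaryocytic markers, it called 1, in TUBB1, less retained over both shRNAs, against 0.0209% of all introns. TUBB1 was low, with 2.8 and 1.57 CPM in sh1 and 11 and 1.83 CPM in sh2, against 0.642 and 1.04 CPM in Con_sh. Among the markers of other lineages, DESeq2 called ITGA2B, an integrin of the megakaryocyte line, higher, CD3E, a T cell gene at 7.05 CPM or less on average, lower, and, with sh2 against control, TUBB1 higher and COL1A1 lower. Of all genes, DESeq2 called 0.689% higher and 0.396% lower over both shRNAs. With sh2 against control these shares were 0.718% and 0.471%. The megakaryocytic markers PF4 and PPBP were at or near 0 in all libraries. Summed over each list, myeloid markers ranged from 15.6 to 39.0 CPM in the knockdown libraries, against 31.2 and 28.3 CPM in Con_sh, and lymphoid markers from 8.67 to 12.9 CPM, against 18.3 and 12.4 CPM. Megakaryocytic markers ranged from 73.7 to 96.4 CPM in the knockdown, against 45.4 and 46.0 CPM in Con_sh, of which ITGA2B alone made up 71.0 to 92.8 CPM, against 43.2 and 43.4 CPM. Another of them, GP1BA, was at 0.427 to 1.16 CPM in the knockdown, against 1.6 and 1.49 CPM in Con_sh, with a log2 fold change of -1.02 (SE 0.44; edgeR adjusted p 0.596). Stromal and epithelial markers ranged from 98.7 to 128.7 CPM, against 128.9 and 140.8 CPM, of which EPCAM alone made up 85.2 to 120.4 CPM, against 111.2 and 124.6 CPM. LYZ alone made up 14.0 to 38.3 CPM of the myeloid sum, against 30.3 and 26.9 CPM. The part of all these markers in the values of the 9 genes was not tested.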

How the data were processed

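RNA-seq tables of 6 K562 libraries were analysed, 2 for each of sh1, sh2 and Con_sh. Per the labels' protocols, libraries came from polyA-selected RNA (NEBNext Ultra kit); aligner, counting program and annotation are not given in the sources used here. Per the file headers, each deposited table gives, for every intron, raw counts at its start and end boundaries, the count of spliced reads and the covered fraction of its length. The deposited percent (MSI), called retention here, equals 100 times boundary reads divided by boundary reads plus 2 times spliced reads, with a largest deviation of 2.8e-14 points. The submitters' processing notes name hg19, but positions behaved as GRCh38: 95.6% of introns lay inside a RefSeq gene, against 62.6% and 62.9% after shifts of 100 kb. Printed starts count from 1. Reads of opposite strands were not told apart by the counts.

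The 134078 introns whose boundary and spliced reads together averaged 20 or more were tested with edgeR 4.0.16 (quasi-likelihood, R 4.3.3) on boundary and spliced reads as a pair of counts, the library being a factor. Gene sums add the spliced reads of a gene's non-overlapping introns, without 4204 introns whose counts repeated those of a neighbouring gene (0 in the 9 genes); they were filtered with filterByExpr (17417 genes) and scaled with TMM. All 6 libraries shared 1 spread, with 3 residual degrees of freedom for gene sums, and p-values were adjusted by Benjamini-Hochberg over all features. The SE given with an edgeR value is its absolute log2 fold change divided by the square root of the F statistic of the test. Such an SE is unstable where the fold change is near 0. The FECH intron starting at 57573366 had 3.33 over both shRNAs and 0.23 for sh2 against control. DESeq2 1.42.0 was run as an alternative on gene sums. Separate introns are those that do not overlap. The authors' counts carry no molecular identifiers.

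The members, lists and repeat rule were chosen with earlier results of these data known. Named were every member gene, and the intron with the smallest p and the most retained one of each gene. Of other lists, only some of the genes past 0.05 or among the 3 with the smallest p were named. PF4 and PPBP were named for their low level. Other introns and pairs named were chosen after their values were seen. Single-gene results for some erythroid markers are not reported here. The label's experiment number was taken as pairing libraries: deviations of gene sums correlated across genes at 0.233 (sh1 and sh2), 0.164 (sh1 and Con_sh) and 0.144 (sh2 and Con_sh), and of intron retention at 0.102, 0.051 and 0.106. The contrasts with the control share its 2 libraries.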

Additional observations from a re-analysis of the deposited data

Results flagged for a closer look

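The ALAS1 gene sum lay above the control of its own experiment in both sh1 libraries and below it in both sh2 libraries. The log2 ratios were 0.35 and 0.11 in sh1 and -0.20 and -0.18 in sh2, and the mean difference of sh1 minus sh2 was 0.42. The edgeR test of sh1 against sh2 gave 0.41 on the log2 scale (SE 0.23, adjusted p 0.912). With the experiment as a replicate block it gave 0.42 (SE 0.13), at an unadjusted edgeR p of 0.0177 and an adjusted p of 0.427. The ALAS1 sum and the FECH intron below were flagged because sh1 and sh2 differed. Tests of sh1 against sh2 on them are therefore not independent support.

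Retention of the FECH intron chr18:57571541-57573245 lay below the control of its own experiment in both sh1 libraries, by -2.15 and -0.41 percentage points, and above it in both sh2 libraries, by 0.33 and 0.62 points. The mean difference of sh1 minus sh2 was -1.76 points. The edgeR test of sh1 against sh2 gave -0.52 on the log2 scale (SE 0.48; adjusted p 1).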

How the results depend on the processing

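No alternative brought a member gene, intron or pair past the threshold. Intron calls over the whole table over both shRNAs were 471 of 134078 introns tested. They were 214 of the 47794 introns covered to 0.95 or more, and 92 of 134078 when the smaller boundary count was doubled. In the same order, the calls were 405, 139 and 75 for sh1 against control and 384, 49 and 43 for sh2 against control. For sh1 against sh2 they were 46, 0 and 0. For sh1 against sh2 they were also 10 with at least 50 reads and 87 with TMM scaling. With the replicate block they were 594 for sh2 against control and 116 for sh1 against sh2, and 7 nested pairs were called; the block changed no call of a haem synthesis gene, intron or pair. DESeq2 called 189, 123, 207 and 67 gene sums in the contrasts of both shRNAs, sh1 and sh2 against control and sh1 against sh2, and edgeR 0.

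Leaving out 1 library gave 269 to 589 intron calls over both shRNAs (fewest without Con_sh replicate 2), 133 to 502 for sh1, 120 to 437 for sh2 and 24 to 49 for sh1 against sh2. It gave 0 to 3, 0 to 4 and 0 to 4 gene sums over both shRNAs, for sh2 and for sh1 against sh2, and 0 to 4 nested pairs. An arm left with 1 library is assumed to vary like the others. log2 fold changes over both shRNAs changed sign for the gene sums of ALAS1 (-0.18 to 0.26), ALAD (-0.01 to 0.37), PPOX (-0.30 to 0.50) and SLC25A38 (-0.27 to 0.02); for introns of ALAS1 at 52198256 (-0.21 to 0.42), ALAS2 at 55021275 (-0.05 to 1.01), ALAD at 113390677 (-0.39 to 0.33), CPOX at 98588855 (-0.32 to 0.45), FECH at 57571541 (-0.51 to 0.32) and SLC25A38 at 39391621 (-0.22 to 0.36); and for nested pairs of UROS (-0.49 to 0.18) and UROD (-0.01 to 0.35). With the smaller boundary count doubled the sign changed for the introns of ALAS1 (-0.17), ALAD (0.39), CPOX (-0.06) and SLC25A38 (-0.08) just named, with TMM scaling for that of CPOX (-0.00), and with the intron of most spliced reads in place of the sum for the ALAS1 gene (-0.06). The cause was not tested. Precision is limited by 2 libraries a group and, in low introns, by boundary reads.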
